A study of Mus musculus with 11 samples.

Results

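Protocadherins are the largest subgroup of the cadherin superfamily of adhesion proteins, and the rows described here are those of the deposited count table whose gene symbol begins with Pcdh. The rule took 67 of the table's 30986 rows. Of these, 55 belong to the clustered genes (11 alpha, 22 beta and 22 gamma rows) and 12 to the single genes that lie apart from the clusters. Over the 9 samples analysed the 67 rows held 2291 counts, of which 62.0% fell on single and 38.0% on clustered genes. The counts come from RNA that was pulled down with FMRP, the RNA-binding protein lost in fragile X syndrome, from brain regions of mice at postnatal day 13 whose ground tissue had been crosslinked by 3 exposures to ultraviolet light of 400 mJ at 254 nm. The groups are cerebellum (2 samples), cortex (3) and hippocampus (4), all from mice for which the labels give no strain, genotype, sex or treatment. The 5 hippocampus libraries count as 4 samples, because the counts of hippocampus 1 and 2 agreed within sampling noise (a chi-square of 1.03 for each degree of freedom over 1873 rows, against 1.51 to 22.1 in 13 other pairs of libraries from 1 region) and were summed as hippocampus 1+2. One further library has labels that name both cortex and hippocampus and stayed out of every group. No input RNA and no pull-down from mice without FMRP was analysed here, so the amount of an mRNA in the tissue and its binding to FMRP cannot be told apart, nor can fewer cells of a type and less RNA per cell.

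Protocadherins carry cadherin repeats outside the cell, span the membrane and bind like molecules on the neighbouring cell. In the alpha and gamma clusters each variable exon has its own promoter and is spliced to constant exons shared by the whole cluster, whereas each beta gene is a single coding exon; a neuron expresses a small set of these isoforms, which serves self-recognition and self-avoidance of its branches. The C-type isoforms (Pcdhac1, Pcdhac2, Pcdhgc3, Pcdhgc4 and Pcdhgc5) lie at the ends of the alpha and gamma clusters, next to the constant exons, and are less subject to the random choice. The single genes include the delta-1 group (Pcdh1, Pcdh7, Pcdh9 and Pcdh11x) and the delta-2 group (Pcdh8, Pcdh10, Pcdh17, Pcdh18 and Pcdh19), which are expressed in region-specific patterns and act in axon growth and synapse formation; the cytoplasmic tails of several delta-2 members bind the WAVE complex, which also contains CYFIP proteins, known partners of FMRP.

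The samples held from 11898 counts (cortex 3) to 197382 counts (cerebellum 2), so that 1 count was worth between 5.07 and 84.0 CPM (counts scaled to a library total of 1000000), and 3 counts, taken as the limit that a count of 0 allows, between 15.2 and 252.1 CPM. The share of counts on predicted gene names (symbols that begin with Gm or end in Rik) was 15.9% in cortex 3, 16.1% in hippocampus 3 and 15.5% in hippocampus 4, and 4.97% to 10.2% in the other 6 samples. The region labels were checked on marker genes. The 12 markers of cerebellar granule cells summed to 6677 to 8297 CPM in cerebellum and 423 to 1161 CPM in the 7 cortex and hippocampus samples, and the 10 markers of telencephalic excitatory neurons to 419 to 512 CPM in cerebellum and 1177 to 3251 CPM in the others. All 12 and all 10 had counts in both, with 11 granule cell markers above every forebrain sample and 4 excitatory markers below every one. The 8 Purkinje cell markers summed to 3164 to 3501 CPM in cerebellum against 546 to 1204 CPM. Most of the cerebellum sums was 1 gene, Itpr1, at 2629.5 and 2786.5 CPM in cerebellum 1 and 2. In cerebellum 3 of the 8 were above every forebrain sample, 0 were below every one, and the rest overlapped. The 7 GABAergic interneuron markers summed to 147 to 309 CPM in cerebellum and 384 to 501 CPM in forebrain, with 1 of the 7 below every forebrain sample. The 7 astrocyte markers summed to 1297 to 1435 CPM in cerebellum and 840.5 to 5109 CPM in forebrain, and 1 of the 4 tested, Slc1a2, was lower in cerebellum by edgeR's test. Slc1a2 was the largest part of the sum in each forebrain sample, at 4141 of 4625 CPM in cortex 2. Of the 7 markers, 2 (Gfap and Aqp4) were above every forebrain sample in cerebellum and 0 were below every one. The 6 hippocampal neuron markers summed to 168 to 609 CPM in cortex, 776 to 2508 CPM in hippocampus and 1039 to 1194 CPM in cerebellum. This list did not set hippocampus apart from cerebellum, where most of the sum was Zbtb20, at 974 and 876 CPM in cerebellum 1 and 2. All markers of these 4 lists had counts in both cerebellum and forebrain. These cell type differences run with the cerebellum comparison throughout, and their part in the protocadherin values was not tested.

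The mean sum of the whole family was close in the 3 regions, while the mean of the clustered genes was higher in cerebellum and that of the single genes higher in cortex and hippocampus. All protocadherins summed to 3180 ± 170 CPM over the cerebellum samples (SD, n = 2), 3105 ± 893 over the cortex samples (n = 3) and 3279 ± 738 over the hippocampus samples (n = 4), which is 0.210% to 0.413% of a library. Clustered genes summed to 1657 ± 279 CPM in cerebellum, against 846 ± 113 in cortex and 1061 ± 303 in hippocampus. Single genes summed to 1523 ± 110, 2260 ± 982 and 2218 ± 844 CPM in the same order. The spread between samples of a region was large for the single sum, and the cerebellum range lay inside that of the other samples. The clustered sum was above all 7 cortex and hippocampus samples in both cerebellum samples (1459 to 1854 against 650.2 to 1322 CPM), but on CPM rescaled by TMM factors (edgeR's trimmed mean scaling) the ranges overlapped (1485 to 1855 against 495 to 1945). These sums are descriptions of chosen rows and were given no test.

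**Figure D1:**
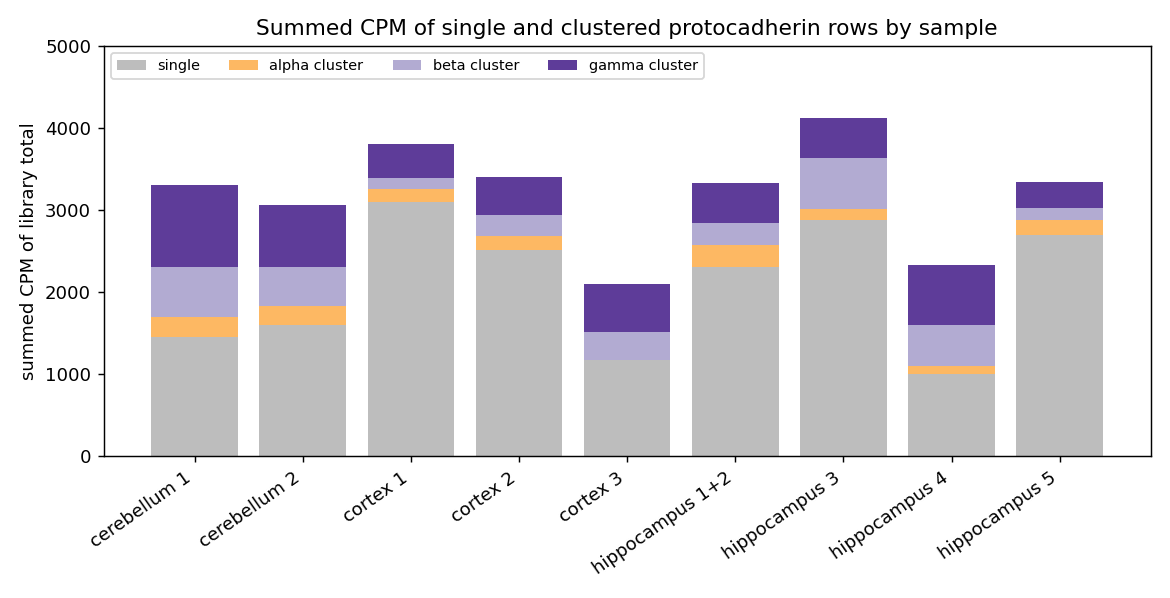
Summed CPM of library totals (vertical axis) of the single rows and of the alpha, beta and gamma clusters, stacked in 1 bar for each of the 9 samples (horizontal axis). The 3 clustered parts of the bar together are higher in both cerebellum samples than in the 7 others (1459 to 1854 against 650.2 to 1322 CPM, an order that does not hold on the TMM scale), and the single part lies within the others' range.

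As a share of the protocadherin counts, which needs no scaling between libraries, clustered genes took 56.2% in cerebellum 1 (95% Wilson interval 50.7% to 61.6%) and 47.7% in cerebellum 2 (43.7% to 51.7%). In cortex the share was 18.8% (12.8% to 26.8%), 26.3% (20.6% to 33.0%) and 44.0% (26.7% to 62.9%) in samples 1 to 3. In hippocampus it was 30.7% (26.6% to 35.2%) in 1+2, 30.4% (26.4% to 34.6%) in 3, 56.9% (43.3% to 69.5%) in 4 and 19.4% (11.95% to 30.03%) in 5. Hippocampus 4 was as high as the cerebellum samples and cortex 3 near them. Those libraries held only 51 and 25 protocadherin counts and had high shares of predicted gene names. Hippocampus 3 had as high a share of predicted gene names (16.1%), with clustered genes at 30.4%. The part of depth or predicted names in these values was not tested. Outside hippocampus 4 and cortex 3, the clustered share of the 5 other forebrain samples lay between 18.8% and 30.7%. All intervals cover counting error only. The mean CPM of a row was higher in cerebellum than over the 7 forebrain samples for 42 of 55 clustered rows (76.4%; 38 on the TMM scale) and 3 of 12 single rows (2 on the TMM scale), beside 49.4% of all rows of the table (45.2% on the TMM scale). By cluster these were 7 of 11 alpha, 18 of 22 beta (14 on the TMM scale) and 17 of 22 gamma rows. Alpha and gamma rows share exons within their cluster, so the rows are not independent. The clustered rows had a median of 10 counts, and the share over all rows was not matched to that depth.

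Regions were compared in 1 fit across all rows with edgeR's quasi-likelihood test, with the numeric code in the sample titles as a block. The first comparison was cerebellum against forebrain, which stands here for the average of the cortex and hippocampus terms. Cortex against hippocampus followed. The code of cortex 3 and hippocampus 4 takes in 4 of the 7 forebrain samples and no cerebellum sample. Titles of those 4 begin with p, and those of both cerebellum samples with s. With the block, those 4 are not compared directly with a cerebellum sample. The p-values are therefore not those of a plain comparison with all 7 forebrain samples. Only 9 protocadherins passed the filter for the test: Pcdh7, Pcdh9, Pcdh10, Pcdh11x, Pcdh15, Pcdh17 and Pcdh19 of the single genes, and Pcdhgc3 and Pcdhga10 of the gamma cluster. The filter asks mainly for a minimum CPM in as many samples as the smallest region has. Pcdhga10 passed with 34 counts, through the shallow cortex 3 and hippocampus 4, while Pcdh1 with 84 counts and Pcdhac2 with 77 did not. In cerebellum against forebrain 4 of the 9 passed an adjusted p of 0.05 (3 lower and 1 higher in cerebellum), beside 7.67% of all 1720 rows tested (3.9% higher and 3.78% lower). Of these 4, Pcdhgc3 met the filter only through its cerebellum samples, and Pcdh10 and Pcdh19 only through forebrain samples. Pcdh17 met it in both. The share of the 9 is therefore a description and no support of its own. The median log2 difference of all rows tested was 0.002. The other 58 protocadherin rows were not tested and are given by their values. Nothing in the labels says that libraries of 1 region came from different animals, so the p-values measure only the spread between these samples.

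Of the delta-2 genes, Pcdh10, Pcdh17 and Pcdh19 were lower in cerebellum. Pcdh10 (ENSMUSG00000049100.15; GRCm38 chromosome 3, 45378398 to 45435623, plus strand) is an adhesion protein that recruits the WAVE complex to cell contacts and takes part in axon growth and in synapse elimination. Pcdh17 (ENSMUSG00000035566.7; chromosome 14, 84443563 to 84539002, plus strand) acts in axon extension and in presynaptic assembly of corticobasal circuits. Pcdh19 (ENSMUSG00000051323.16; chromosome X, 133582860 to 133688987, minus strand) is the X-linked gene mutated in a form of epilepsy that mainly affects females. Their promoters are shown because these genes were lower together in cerebellum, with that of the delta-1 gene Pcdh9, which was not, beside them. Each is the stretch of 250 bases upstream of the gene's start in RefSeq on GRCm38.p6, 5′ to 3′ on the gene's strand, with the letters CCAAT, or ATTGG where they read on the other strand, in capitals. The windows lie at chr3:45378148-45378397, plus strand (Pcdh10), chr14:84443313-84443562, plus strand (Pcdh17), chrX:133688994-133689243, minus strand (Pcdh19) and chr14:93890680-93890929, minus strand (Pcdh9).
Pcdh10: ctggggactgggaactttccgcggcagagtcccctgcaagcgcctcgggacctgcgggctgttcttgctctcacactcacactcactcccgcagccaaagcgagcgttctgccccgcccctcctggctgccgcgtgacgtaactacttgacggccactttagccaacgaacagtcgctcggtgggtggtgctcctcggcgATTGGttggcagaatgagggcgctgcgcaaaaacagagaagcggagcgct
Pcdh17: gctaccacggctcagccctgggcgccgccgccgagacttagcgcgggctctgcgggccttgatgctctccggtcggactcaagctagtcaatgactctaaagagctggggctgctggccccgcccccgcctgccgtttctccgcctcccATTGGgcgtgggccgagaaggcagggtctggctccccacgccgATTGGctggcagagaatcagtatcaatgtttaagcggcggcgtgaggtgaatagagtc
Pcdh19: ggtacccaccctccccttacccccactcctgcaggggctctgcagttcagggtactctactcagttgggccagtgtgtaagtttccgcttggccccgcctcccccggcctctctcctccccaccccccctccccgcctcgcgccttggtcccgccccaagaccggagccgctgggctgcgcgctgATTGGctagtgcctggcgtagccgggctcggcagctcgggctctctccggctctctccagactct
Pcdh9: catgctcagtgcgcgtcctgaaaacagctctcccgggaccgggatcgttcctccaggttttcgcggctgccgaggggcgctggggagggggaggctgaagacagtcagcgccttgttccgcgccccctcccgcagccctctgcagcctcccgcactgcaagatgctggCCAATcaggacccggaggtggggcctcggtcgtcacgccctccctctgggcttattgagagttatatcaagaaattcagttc
Of the 67 rows, 9 single genes have an entry among the promoters used here. CCAAT on either strand was found in 8 of these 9 (all but Pcdh7), against 33.9% of 32851 promoters of the same length. The letters CCGCCC on either strand were found in 4 of 9 (Pcdh10, Pcdh17, Pcdh18 and Pcdh19), against 32.7%. TATAAA on either strand was found in 2 of 9, against 12.4%. CG dinucleotides numbered 22, 21, 16 and 18 in the promoters of Pcdh10, Pcdh17, Pcdh19 and Pcdh9, against a median of 6 over all promoters. In the other member promoters they numbered 23 (Pcdh18), 11 (Pcdh8), 7 (Pcdh7), 6 (Pcdh15) and 3 (Pcdh20). These letters were chosen after the sequences had been read, and a match describes the sequence without showing a site.

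Pcdh10 had CPM values of 94.3 and 162 in cerebellum 1 and 2, 944, 519.9 and 252 in cortex 1 to 3, and 376, 324, 137 and 464 in hippocampus 1+2, 3, 4 and 5. Both cerebellum samples were low, and only hippocampus 4, with 3 counts, came between them. The difference was −2.20 on the log2 scale (SE 0.54, edgeR adjusted p = 0.00171). On library totals no tested protocadherin had both cerebellum samples below all 7 forebrain samples, as 4.3% of all rows tested had. On the TMM scale both cerebellum samples of Pcdh10 (94.3 and 165.0) lay below all 7 others (176.7 to 748.2), as did 5% of all rows tested. Pcdh17 had CPM values of 189 and 182 in cerebellum 1 and 2, 521, 287 and 168 in cortex 1 to 3, and 460.4, 904, 228 and 418 in hippocampus 1+2, 3, 4 and 5. The cerebellum samples were nearly equal and were undercut only by cortex 3, where 2 counts were found. The log2 difference was −1.89 (SE 0.51, edgeR adjusted p = 0.00554). Without hippocampus 3, the highest sample, the difference was −1.14 and the edgeR adjusted p 0.362, and without hippocampus 5 the edgeR adjusted p was 0.0764. Pcdh19 had CPM values of 62.9 and 101 in cerebellum 1 and 2, 195, 376 and 84.0 in cortex 1 to 3, and 322, 477, 45.6 and 418 in hippocampus 1+2, 3, 4 and 5. Here cortex 3 and hippocampus 4, with 1 count each, fell within or below the cerebellum range, and the other 5 forebrain samples were all above it. The log2 difference was −2.35 (SE 0.60, edgeR adjusted p = 0.00354), and −1.92 without hippocampus 3 (edgeR adjusted p = 0.181). The codes give the cerebellum samples partners in cortex 1, hippocampus 1+2 and hippocampus 3. Cortex 2, cortex 3, hippocampus 4 and hippocampus 5 have a code with no cerebellum sample. Within the code of cerebellum 1 the TMM-scaled log2 ratios to its partners were −2.57 for Pcdh10, −1.20 for Pcdh17 and −1.91 for Pcdh19, and within the code of cerebellum 2 they were −1.61, −2.92 and −2.84. These ratios use samples of the same fit and are no further support. Among uncalled rows, Pcdh11x (−1.72 and −0.83) and Pcdh15 (−0.76 and −1.55) were also negative in both codes. Pcdh9 was positive in both, and Pcdh7 and Pcdhga10 changed sign. None of the 3 calls held when cerebellum 1, cerebellum 2 or cortex 1 was left out, while the sign held. The 3 calls were also lost with scaling by library totals alone (edgeR adjusted p = 0.0985, 0.182 and 0.0817 for Pcdh10, Pcdh17 and Pcdh19). With no replicate block, Pcdh17 lost its call (log2 difference −1.21, edgeR adjusted p = 0.212). Pcdh10 and Pcdh19 met the filter of the test only through forebrain samples.

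The other delta-2 genes were sparse and were not tested. Pcdh8, also called arcadlin, is induced by neuronal activity and drives internalisation of N-cadherin. It had counts of 3 and 4 in cerebellum 1 and 2, 0, 2 and 1 in cortex 1 to 3, and 6, 6, 1 and 0 in hippocampus 1+2, 3, 4 and 5, which gave a mean of 25.8 ± 7.89 CPM over the cerebellum samples (SD), 40.0 ± 42.2 over the cortex samples and 35.7 ± 23.9 over the hippocampus samples. Pcdh18 had counts of 1 and 6 in cerebellum 1 and 2, 1, 1 and 0 in cortex 1 to 3, and 2, 9, 0 and 1 in hippocampus 1+2, 3, 4 and 5, which gave a mean of 20.4 ± 14.1 CPM over the cerebellum samples (SD), 16.8 ± 16.3 over the cortex samples and 34.6 ± 34.1 over the hippocampus samples. Neither row separates the regions. Added up, the 5 delta-2 genes reached 442 ± 77.0 CPM in cerebellum against 1173 ± 555 in cortex and 1214 ± 570 in hippocampus. Their ranges overlapped on library totals (388 to 497 against 456 to 1833) and not on the TMM scale (388 to 505 against 589 to 2845). Pcdh10, Pcdh17 and Pcdh19 held 202, 268 and 162 of the 676 counts in this sum. The sum therefore mostly restates those 3 rows and is no further support. All 5 delta-2 genes had a lower mean in cerebellum than over the forebrain samples on both scales. Over all rows of the table the cerebellum mean was the higher in 49.4% (45.2% on the TMM scale). For Pcdh18 the cerebellum mean (20.4 CPM) was above that of cortex (16.8 CPM). The division into delta groups is textbook knowledge and was applied after the counts had been seen.

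**Figure D2:**
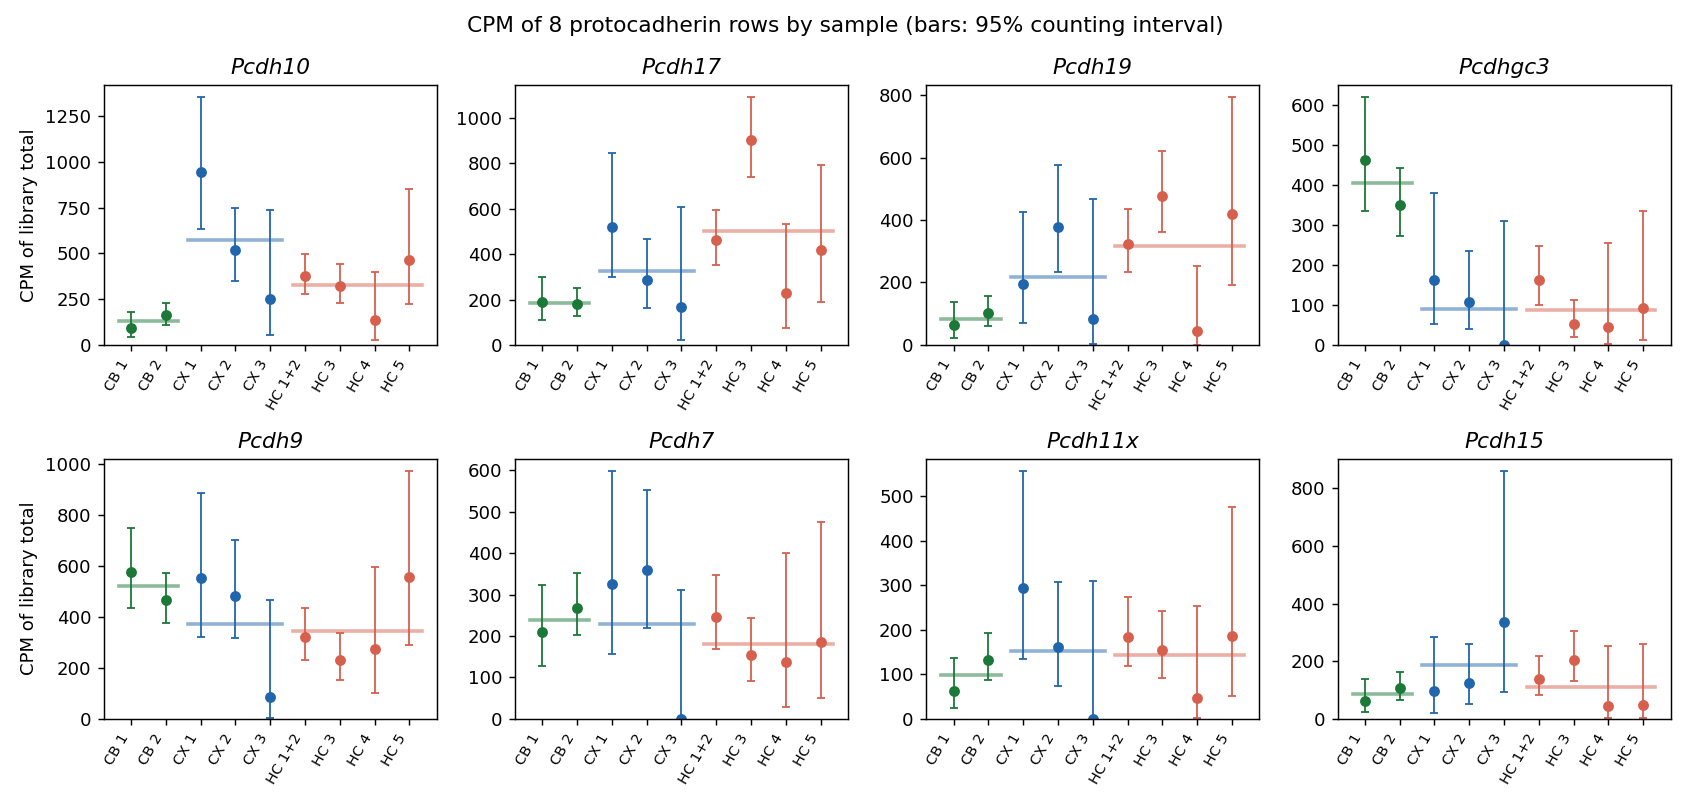
CPM of library totals (vertical axis) of 8 tested protocadherin rows in each of the 9 samples (horizontal axis; CB cerebellum, CX cortex, HC hippocampus). Points are samples, bars are 95% exact counting intervals and horizontal lines are region means. Pcdh10, Pcdh17 and Pcdh19 are low in both cerebellum samples and Pcdhgc3 is high in both, at 461 and 349.6 CPM against 0 to 163 CPM.

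The delta-1 genes did not pass the test in either direction. Pcdh9, the protocadherin with the most counts (279, rank 237 among all rows), is expressed widely in the brain and acts in cortical organisation. It had CPM values of 576 and 466 in cerebellum 1 and 2, 553, 484 and 84.0 in cortex 1 to 3, and 322, 230.1, 273 and 557 in hippocampus 1+2, 3, 4 and 5. The cerebellum samples were among the higher ones but overlapped cortex 1, cortex 2 and hippocampus 5. The log2 difference was 0.55 (SE 0.47, edgeR adjusted p = 0.657), and on the TMM scale both cerebellum samples (576 and 474) stood above all others (86.3 to 439), as did 10.8% of all rows tested. Pcdh7, an adhesion protein with splice forms that differ in their tail, had CPM values of 209.5 and 269 in cerebellum 1 and 2, 326, 359 and 0 in cortex 1 to 3, and 246, 153, 137 and 186 in hippocampus 1+2, 3, 4 and 5. Its regions overlapped, and the fitted log2 difference of −0.14 (SE 0.54, edgeR adjusted p = 0.963) has the opposite sign to the region means (239 CPM in cerebellum, against 228 in cortex and 180.4 in hippocampus); the minus-strand gene 4932441J04Rik overlaps its exons, and the sources used here do not say whether counting used strand. Pcdh11x, the X-linked copy of the pair known as PCDH11X and PCDH11Y in human, had CPM values of 62.9 and 132 in cerebellum 1 and 2, 293, 161 and 0 in cortex 1 to 3, and 184, 153, 45.6 and 186 in hippocampus 1+2, 3, 4 and 5. Its log2 difference of −1.28 (SE 0.64, edgeR adjusted p = 0.266) did not pass. Pcdh1, which was not tested and is also known from airway epithelium, had CPM values of 126 and 106 in cerebellum 1 and 2, 65.1, 125 and 84.0 in cortex 1 to 3, and 115, 179, 45.6 and 186 in hippocampus 1+2, 3, 4 and 5. No region stood apart for Pcdh1. Together the delta-1 genes summed to 974 ± 1.10 CPM in cerebellum, against 845 ± 589 in cortex and 799.8 ± 258 in hippocampus.

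Of the remaining single genes, Pcdh15 forms the tip link of hair cell stereocilia in the inner ear together with cadherin 23. It had CPM values of 62.9 and 106 in cerebellum 1 and 2, 97.7, 125 and 336 in cortex 1 to 3, and 138, 205, 45.6 and 46.4 in hippocampus 1+2, 3, 4 and 5. Its highest value, in cortex 3, rests on 4 counts, and the log2 difference between cerebellum and forebrain was −1.37 (SE 0.70, edgeR adjusted p = 0.281). Pcdh20 was not tested and had counts of 2 and 3 in cerebellum 1 and 2, 1, 0 and 1 in cortex 1 to 3, and 9, 9, 0 and 4 in hippocampus 1+2, 3, 4 and 5, which gave a mean of 18.1 ± 4.07 CPM over the cerebellum samples (SD), 38.9 ± 42.4 over the cortex samples and 82.9 ± 76.8 over the hippocampus samples. All but hippocampus 1+2 and 3 had fewer than 5 counts of Pcdh20. Pcdh12, known from vascular endothelium, was the only single gene with under 20 counts: 10 in all, with a mean of 5.07 ± 7.16 CPM over the cerebellum samples (SD), 16.8 ± 16.3 over the cortex samples and 12.6 ± 20.4 over the hippocampus samples. The 6 endothelial markers summed to 136 to 152 CPM in cerebellum and 53.7 to 252 CPM in forebrain.

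Levels can be compared between genes only per length. Per kilobase of annotated exon, the mean level in cerebellum was 76.8 CPM for Pcdh9, 73.7 for Pcdhgc3, 22.5 for Pcdh7, 14.3 for Pcdh17, 8.07 for Pcdh10 and 7.85 for Pcdh19. In cortex the same genes had 55.1, 16.4, 21.5, 25.04, 36.0 and 20.9 CPM per kilobase, and in hippocampus 51.0, 15.9, 17.0, 38.7, 20.5 and 30.2. On all annotated exon bases, Pcdh9 had the highest level of the 6 in each region, and the 3 delta-2 genes were below Pcdh7 in cerebellum and above it in hippocampus. Of the 5499 exon bases of Pcdhgc3, 38.5% are shared with other protocadherins, and how reads there were counted is not known. Its level per kilobase depends on that, so the order of Pcdh9 and Pcdhgc3 in cerebellum is not settled. These per-length levels are means over samples whose spread was given above, and the order among neighbours was not tested.

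**Figure D3:**
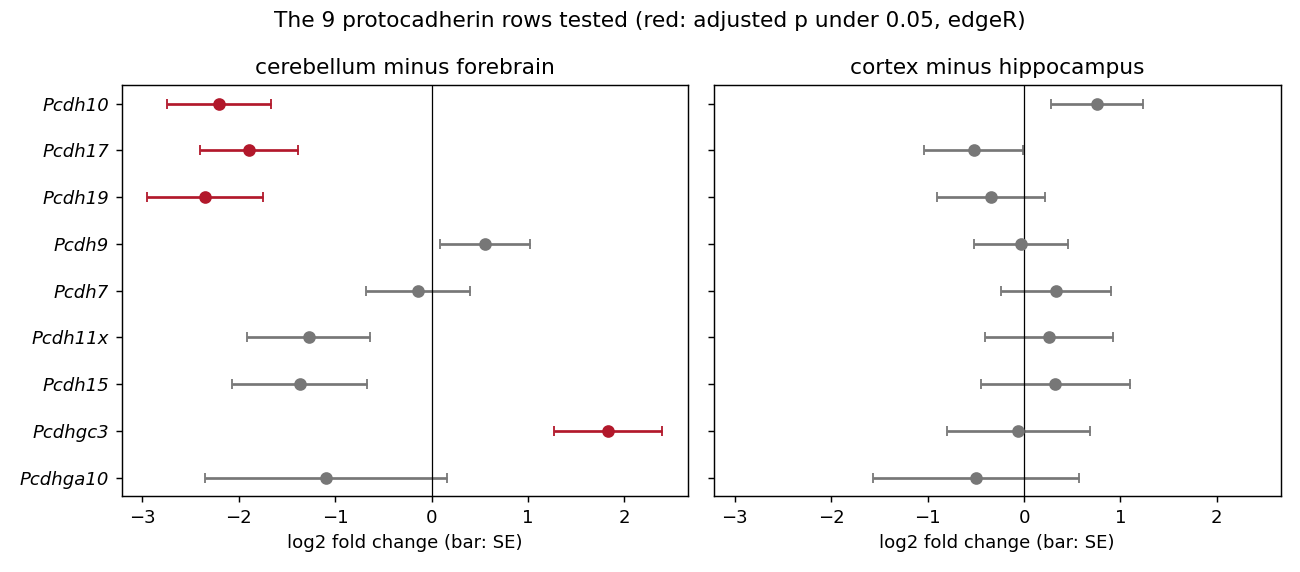
Log2 difference (horizontal axis) of the 9 tested protocadherins (vertical axis) in cerebellum minus forebrain and in cortex minus hippocampus; points are edgeR estimates, bars are 1 standard error to each side and red marks an adjusted p under 0.05. Pcdh10, Pcdh17, Pcdh19 and Pcdhgc3 passed the adjusted p in the first comparison and no row passed in the second.

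No protocadherin passed the test between cortex and hippocampus. In cortex against hippocampus 0 of 1720 rows passed the edgeR test (0% called), 68 had an unadjusted p under 0.05, and DESeq2 called 1. Of the 9 protocadherins 0 had an unadjusted p under 0.05 there, and DESeq2 called 0 of them. The log2 differences of the tested protocadherins, cortex minus hippocampus, were 0.76 for Pcdh10 (SE 0.48), −0.52 for Pcdh17 (SE 0.51), −0.34 for Pcdh19 (SE 0.56), 0.33 for Pcdh7 (SE 0.57) and −0.03 for Pcdh9 (SE 0.49). Pcdh11x (0.26, SE 0.67), Pcdh15 (0.32, SE 0.77), Pcdhgc3 (−0.06, SE 0.74) and Pcdhga10 (−0.50, SE 1.07) had larger standard errors. All 9 had an edgeR adjusted p of 0.999.

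Among the clustered genes, Pcdhgc3 stood out in count and in its regional difference. It took 35.6% of all gamma counts (154), and its product, a C-type isoform, is known to promote dendrite branching of cortical neurons. The row (ENSMUSG00000102918.1; GRCm38 chromosome 18, 37806364 to 37841873, plus strand) had CPM values of 461 and 349.6 in cerebellum 1 and 2, 163, 108 and 0 in cortex 1 to 3, and 161, 51.1, 45.6 and 92.9 in hippocampus 1+2, 3, 4 and 5. Both cerebellum samples were above all 7 forebrain samples, as were 9.3% of all rows tested (10.8% on the TMM scale, where Pcdhgc3 kept its place above all 7). Cortex 3 had 0 counts, which allows up to 252 CPM at its depth, and hippocampus 4 had 1. The log2 difference was 1.83 (SE 0.56, edgeR adjusted p = 0.0186). The row met the filter of the test only through the cerebellum samples. Pcdhgc3 had a mean of 405 ± 78.8 CPM over the cerebellum samples (SD), 90.1 ± 82.8 over the cortex samples and 87.7 ± 53.3 over the hippocampus samples. Within the code of cerebellum 1 the TMM-scaled log2 ratio was 1.68 and within that of cerebellum 2 it was 2.16, from samples of the same fit. Without hippocampus 3 the edgeR adjusted p was 0.124, and under DESeq2 the log2 difference was 1.89 (adjusted p = 0.115). The call also ended without either cerebellum sample, cortex 1, hippocampus 1+2 or hippocampus 5, and with scaling by library totals alone (edgeR adjusted p = 0.0769), with the sign kept in each. An antisense gene, BC037039, overlaps its exons, and without a statement on strand the reads of both cannot be told apart. Gm42416, Gm37013, Gm37388 and Gm38182 also overlap exons of Pcdhgc3, and of Pcdhga10.

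**Figure D4:**
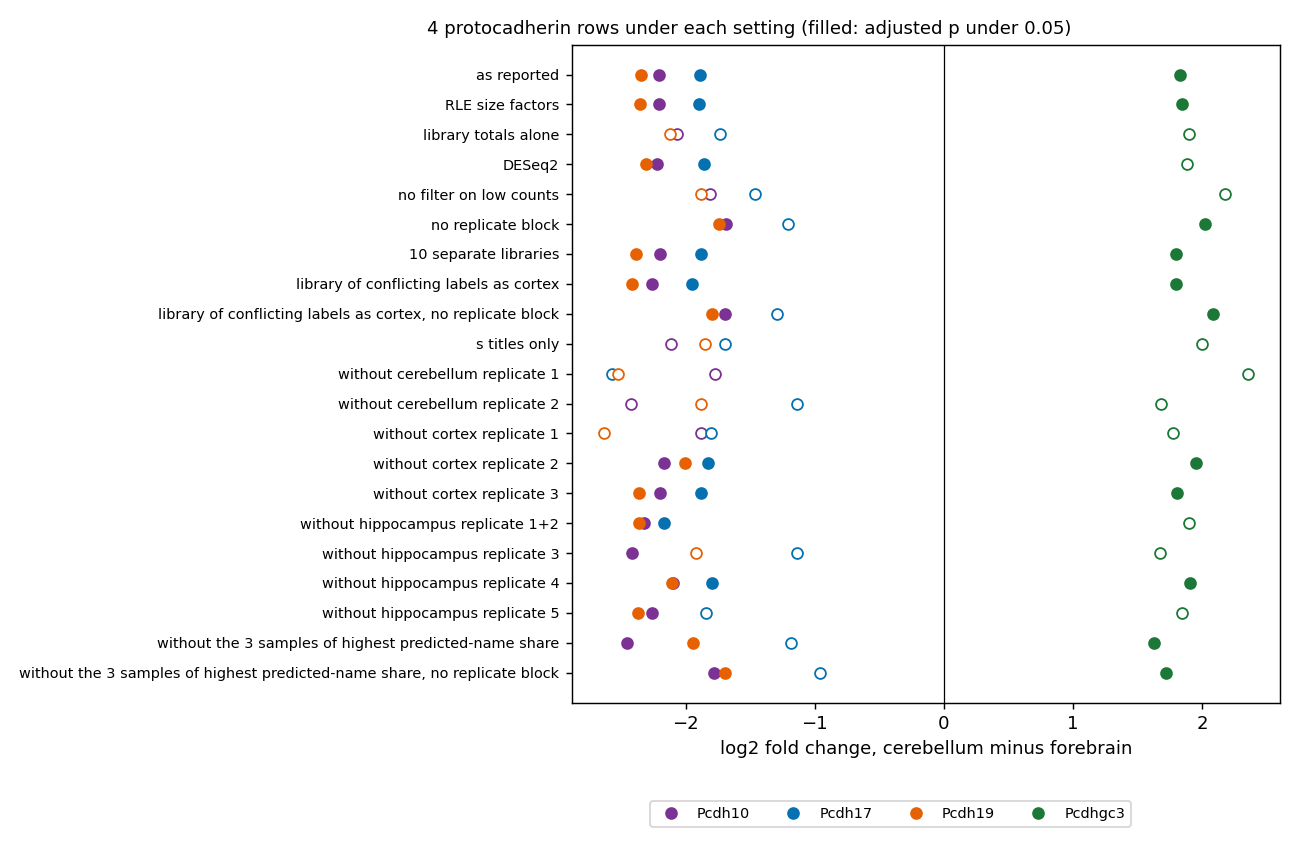
Log2 difference between cerebellum and forebrain (horizontal axis) of the 4 protocadherins that passed the test, under each setting (vertical axis); filled points have an adjusted p under 0.05. No point crosses 0, while all 4 points are open under library totals alone, no filter, s titles only, and without cerebellum 1, cerebellum 2 or cortex 1.

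The other C-type rows were not tested. Pcdhac2, the alpha-cluster C-type isoform that serotonergic axons need for tiling, took 54.2% of the alpha counts. It had CPM values of 105 and 137 in cerebellum 1 and 2, 163, 108 and 0 in cortex 1 to 3, and 153, 68.2, 0 and 46.4 in hippocampus 1+2, 3, 4 and 5. Cortex 1 and hippocampus 1+2 were above both cerebellum samples, so the regions overlapped. Pcdhgc4, an isoform needed for survival of cortical interneurons, had counts of 5 and 11 in cerebellum 1 and 2, 1, 1 and 0 in cortex 1 to 3, and 5, 2, 1 and 1 in hippocampus 1+2, 3, 4 and 5, which gave a mean of 54.1 ± 2.37 CPM over the cerebellum samples (SD), 16.8 ± 16.3 over the cortex samples and 36.9 ± 13.7 over the hippocampus samples. Both cerebellum samples (52.4 and 55.7 CPM) stood just above the highest other sample (46.4 CPM, which is 1 count), but not on the TMM scale, and below the limit that a count of 0 allows in cortex 3. Pcdhgc5 had 18 counts, with a mean of 23.3 ± 11.5 CPM over the cerebellum samples (SD), 17.9 ± 31.0 over the cortex samples and 37.5 ± 42.3 over the hippocampus samples, and Pcdhac1 had 15 counts, 9 of them in cerebellum and none in cortex. Together the 5 C-type rows summed to 637 ± 76.9 CPM in cerebellum, against 215 ± 189.5 in cortex and 260.4 ± 87.4 in hippocampus, and the 50 other clustered rows to 1020 ± 203, 631 ± 284 and 801 ± 358. The log2 ratio of cerebellum to forebrain means was 1.40 for the C-type rows and 0.49 for the others (1.45 and 0.33 on the TMM scale). Within the gamma cluster it was 1.72 for the 3 C-type rows and 0.15 for the 19 others (1.73 and 0.03 on the TMM scale). The excess of the gamma sum in cerebellum lay mainly in 1 C-type row, Pcdhgc3, at 405 CPM against a forebrain mean of 88.7. Pcdhgc4 had 54.1 against 28.3 CPM, and Pcdhgc5 went the other way with 23.3 against 29.1. The C-type ratios therefore mostly restate Pcdhgc3 and do not show a trait shared by the C-type rows. No test was made of these sums.

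Pcdhga10, the other gamma row in the test, had 1 to 6 counts in every sample whatever its depth: 3 and 2 in cerebellum 1 and 2, 1, 4 and 5 in cortex 1 to 3, and 4, 6, 6 and 3 in hippocampus 1+2, 3, 4 and 5. Its CPM was therefore lowest in cerebellum 2, the deepest library, at 10.1, and highest in cortex 3, the shallowest, at 420.2. Cerebellum 1 was at 31.4 CPM, just below cortex 1 at 32.6 and above hippocampus 1+2 at 30.7. The log2 difference was −1.10 (SE 1.25, edgeR adjusted p = 0.788), and it changed sign among the alternative settings (−2.64 to 0.22). The minus-strand gene Gm26672 overlaps its exons. Pcdhga6 had counts of 6 and 7 in cerebellum 1 and 2, 1, 1 and 0 in cortex 1 to 3, and 5, 3, 0 and 0 in hippocampus 1+2, 3, 4 and 5, which gave a mean of 49.2 ± 19.4 CPM over the cerebellum samples (SD), 16.8 ± 16.3 over the cortex samples and 16.0 ± 19.2 over the hippocampus samples. Pcdhga8 had counts of 1 and 7 in cerebellum 1 and 2, 0, 1 and 0 in cortex 1 to 3, and 9, 4, 0 and 0 in hippocampus 1+2, 3, 4 and 5, which gave a mean of 23.0 ± 17.7 CPM over the cerebellum samples (SD), 5.98 ± 10.3 over the cortex samples and 25.8 ± 33.0 over the hippocampus samples. For these 2 rows the regions overlapped. The other 17 gamma rows held 3 to 18 counts each.

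The beta genes, each with a coding exon of its own, summed to 608 and 476 CPM in cerebellum, 130.2, 251 and 336 in cortex, and 261, 631, 501 and 139 in hippocampus (samples in the order used above). Hippocampus 3 and 4 reached the cerebellum levels and the others did not. Hippocampus 3 and 4 are also samples with many counts on predicted gene names, as is cortex 3, which stood at 336 CPM. Pcdhb19 had counts of 7 and 12 in cerebellum 1 and 2, 1, 2 and 1 in cortex 1 to 3, and 3, 7, 0 and 1 in hippocampus 1+2, 3, 4 and 5, which gave a mean of 67.1 ± 8.87 CPM over the cerebellum samples (SD), 50.8 ± 28.8 over the cortex samples and 32.3 ± 26.3 over the hippocampus samples. Pcdhb16 had counts of 7 and 7 in cerebellum 1 and 2, 2, 0 and 0 in cortex 1 to 3, and 5, 6, 1 and 0 in hippocampus 1+2, 3, 4 and 5, which gave a mean of 54.4 ± 26.8 CPM over the cerebellum samples (SD), 21.7 ± 37.6 over the cortex samples and 33.8 ± 23.1 over the hippocampus samples. The regions overlapped for both rows, and Pcdhb16 in cerebellum 2, at 35.5 CPM, was below cortex 1 and hippocampus 1+2, 3 and 4. Pcdhb18 had counts of 4 and 8 in cerebellum 1 and 2, 0, 3 and 0 in cortex 1 to 3, and 3, 6, 2 and 1 in hippocampus 1+2, 3, 4 and 5. Pcdhb20 had counts of 5 and 4 in cerebellum 1 and 2, 0, 2 and 1 in cortex 1 to 3, and 3, 5, 1 and 0 in hippocampus 1+2, 3, 4 and 5. Pcdhb21 had counts of 3 and 4 in cerebellum 1 and 2, 0, 2 and 0 in cortex 1 to 3, and 2, 8, 1 and 0 in hippocampus 1+2, 3, 4 and 5. None of these 5 beta rows, the only ones with 20 or more counts, had cerebellum samples that both exceeded all others. The other 17 beta rows held 3 to 16 counts. The 10 alpha rows beside Pcdhac2 held 2 to 15 counts. The alpha cluster as a whole summed to 240 ± 16.6 CPM in cerebellum, against 114 ± 99.1 in cortex and 172 ± 79.3 in hippocampus.

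**Figure D5:**
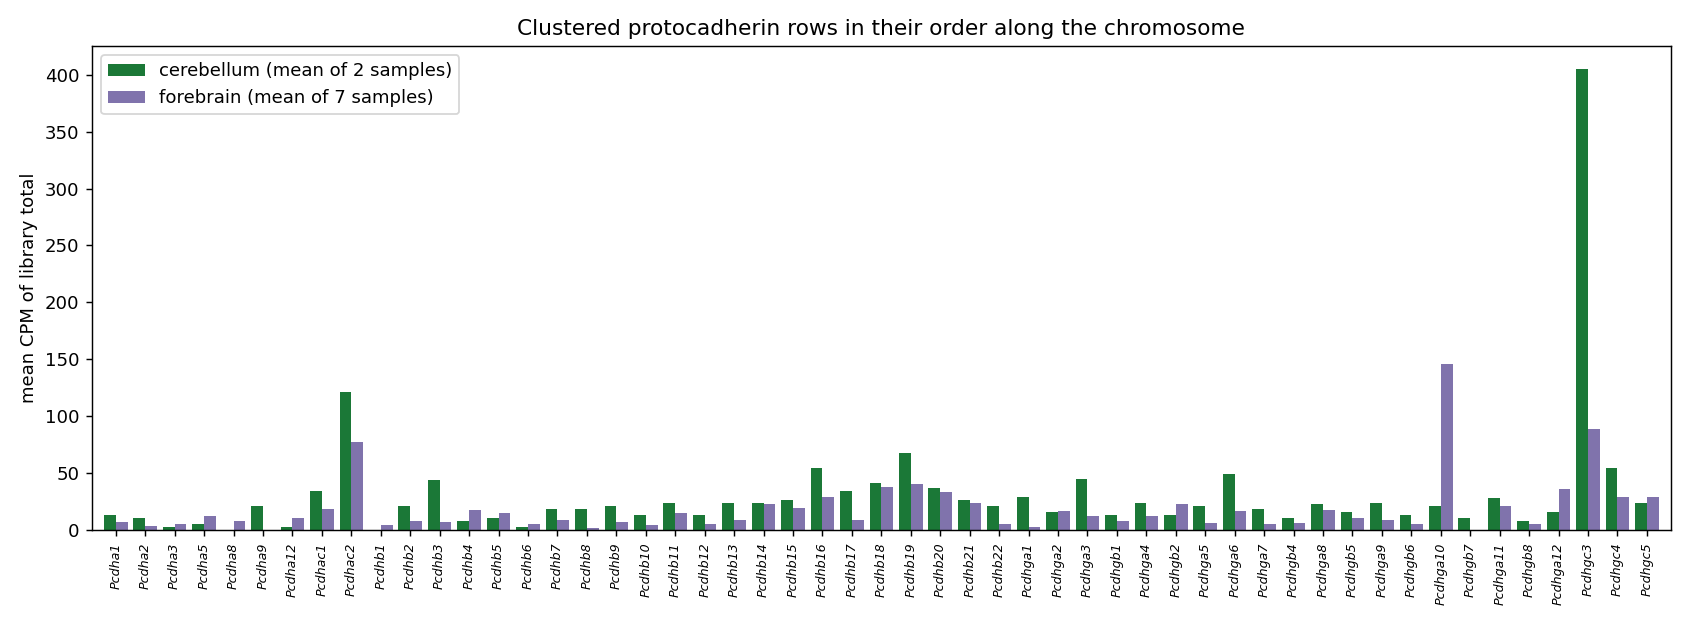
Mean CPM of library totals (vertical axis) of clustered protocadherin rows in cerebellum (2 samples) and forebrain (the 7 cortex and hippocampus samples), in their order along the chromosome (horizontal axis); bars are means with no error shown. It shows the 53 of 55 rows with a single entry in the annotation, and Pcdhgc3 is the tallest in cerebellum at 405 CPM.

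How a read was given to a clustered gene matters, because the isoforms of the alpha and gamma clusters share their constant exons. In the GENCODE annotation of GRCm38, 48.6% to 54.9% of the exon bases of an alpha gene and 27.8% to 66.8% of those of a gamma gene are also exon of another protocadherin, against 0% to 9.67% for beta and 0% for single genes. Of the 30-base stretches of a gene's transcripts, a median of 62.1% in alpha, 46.2% in gamma and 12.2% in beta rows also occur in another protocadherin, and at most 0.0618% in single genes. Reads in shared stretches cannot be assigned to 1 isoform, and the rule by which the deposited counts treated them is not given in the sources used here. The values of individual alpha and gamma rows, Pcdhgc3 among them, are therefore uncertain, and so are the clustered sums and shares that contain them. Pcdh10, Pcdh17 and Pcdh19 share no exon bases with another protocadherin. Of other genes, 1700027H10Rik overlaps 154 exon bases of Pcdh10, and Gm26851 overlaps 57 of Pcdh19.

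No tested gene of the lists of cluster regulators and intracellular partners passed the test. Of 13 regulators of the clusters (cohesin, CTCF, methylation and silencing factors) 4 were tested and 0 passed edgeR's adjusted p in either comparison (1 had an unadjusted p under 0.05 in each, and DESeq2 called 0), with a median log2 difference of 0.11 between cerebellum and forebrain. Nipbl, which loads cohesin, had 342 ± 83.0 CPM in cerebellum, against 129 ± 39.2 in cortex and 260 ± 139 in hippocampus (log2 difference 1.37, edgeR adjusted p = 0.134). Wapl, which releases cohesin, had a log2 difference of −0.46, and Smchd1, a silencer of the clusters, was not tested. Of 20 intracellular partners (the WAVE complex, kinases and other binders) 11 were tested and 0 passed edgeR's adjusted p in either comparison (1 had an unadjusted p under 0.05 in cerebellum against forebrain and 0 in cortex against hippocampus, and DESeq2 called 0), with a median of −0.20. Nckap1, a WAVE complex subunit, had 639.9 ± 103 CPM in cerebellum, against 1016 ± 979 in cortex and 947 ± 789 in hippocampus. Cyfip2, the subunit that also binds FMRP, had 631 ± 32.5, 1093 ± 366 and 659 ± 426 CPM. Its fitted log2 difference of 0.21 (edgeR adjusted p = 0.933) has the opposite sign to these means, so no direction is given. Abi2 had a log2 difference of −0.53.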

How the data were processed

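RNA pulled down with FMRP after crosslinking was sequenced per brain region. The deposited file holds whole-number counts per gene symbol. Reads were aligned to mm10 with Bowtie 0.12.7 and handled with Picard, per the submitters' processing notes; the counter, annotation, use of strand and treatment of duplicates are not given in the sources at hand. CPM was computed on library totals (30986 rows). Rows passing edgeR's filterByExpr by region (1720) were tested with edgeR 4.0.16 (R 4.3.3): TMM scaling, quasi-likelihood fit of 9 samples with region and title code, 4 residual degrees of freedom, Benjamini-Hochberg adjustment, threshold 0.05. The standard error is the log2 difference over the root of F. DESeq2 1.42.0 was an alternative. The correlation of deviations was −0.0796 to 0.502 over 8 pairs of samples with the same title code (median 0.137) and −0.297 to 0.113 over 18 pairs with different codes (median −0.0507), ranges that overlap; the labels do not say what the code marks. Every row whose symbol begins with Pcdh was kept; those tested or with at least 20 counts are given by sample. The members and lists were chosen with earlier results of these data known. The library of conflicting labels (30344 counts) was left out of comparisons.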

Additional observations from a re-analysis of the deposited data

Results flagged for a closer look

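Among 26 values examined in the 4 hippocampus samples, Pcdh8 had a sample far from the others: hippocampus 5 was at 0 CPM, while the other 3 lay at 45.6 CPM or above, and the gap is 0.891 of the whole range, past Dixon's 95% critical value for 4 samples. At its depth a count of 0 allows 139 CPM, and chance alone sets apart about 1 group in 20.

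The library whose title says cortex and whose tissue label says hippocampus carried protocadherin counts above the limit that a count of 0 allows (98.9 CPM). All protocadherins summed to 2109 CPM there, clustered ones to 560.2 CPM and single ones to 1549 CPM. Pcdh10 reached 362.5 CPM, Pcdh17 296.6, Pcdh9 263.6 and Pcdh19 197.7. Pcdhga10 was at 164.8 CPM, and Pcdh7, Pcdh11x and Pcdhac2 at 131.8 CPM each.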

How the results depend on the processing

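In cerebellum against forebrain, 132 rows were called. The count was 54 with scaling by library totals alone (37 higher and 17 lower; median of all rows 0.124), 87 with DESeq2, 1 with no filter on low counts, 85 with the samples whose titles begin with s, and 2 to 176 when each sample was left out in turn (2 without cerebellum 1, 17 without cerebellum 2, 15 without cortex 1, 81 without hippocampus 1+2). Without cortex 3, hippocampus 3 and hippocampus 4, a setting chosen after seeing the data, it was 215, and 253 with no replicate block. With no replicate block alone it was 156 (93 higher and 63 lower). In cortex against hippocampus 0 rows were called; 1 was called with RLE size factors, with DESeq2, with 10 separate libraries, and with the library of conflicting labels as cortex (with or without the block). It was 3 without those 3 samples, 0 without them and with no replicate block, and 0 to 1 when each sample was left out.

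Pcdh10, Pcdh17, Pcdh19 and Pcdhgc3 kept their sign under all 20 alternatives and missed the threshold in 6, 12, 7 and 10 of them. Leaving out each sample gave log2 differences of −2.42 to −1.77, −2.57 to −1.14, −2.63 to −1.89 and 1.68 to 2.36. Under no replicate block Pcdh10 was −1.69 (edgeR adjusted p = 0.0341), Pcdh19 −1.74 (edgeR adjusted p = 0.0484) and Pcdhgc3 2.02 (edgeR adjusted p = 0.00225). Without the 3 samples Pcdh17 was −1.18 (edgeR adjusted p = 0.134). The clustered sum was above all forebrain samples in cerebellum on library totals and overlapped them on the TMM scale. Low totals, 11898 to 30721 counts in cortex 3, hippocampus 4 and 5 and cortex 1, limit the values; the cause of the changes was not tested.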
